A study of Homo sapiens with 39 samples.

Results

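The genes described here are 8 genes of plasminogen activation and of protease inhibition, among 60671 genes measured in 39 RNA-seq libraries of the human melanoma cell lines A375 and WM115. They were taken from the deposited gene table by their symbols: TFPI2, TFPI, SERPINE2, SERPINF1, SERPINA3, PLAU, PLAUR and PLAT. They were chosen by the TFPI2 level, which was higher in clones with the R4 deletion of both lines. The TFPI2 values of those clones, of clone 1.3 and of the R4 and R1 clones against each other are therefore given as a description, without a test. The study deleted an enhancer region of SOX10, the transcription factor of neural crest and melanocyte cells, and the labels name the deleted region R1 or R4. Of A375 there were 4 libraries from wild-type cells (WT), 3 and 4 libraries from clones 1.1 and 1.2, which lack R1, and 4 and 3 libraries from clones 4.1 and 4.2, which lack R4. Of WM115 there were 4 WT libraries, 5 and 3 from clones 1.1 and 1.2 without R1, and 3 each from clones 4.1 and 4.2 without R4. A further 3 WM115 libraries were of clone 1.3, whose title follows the R1 numbering and whose genotype label names R4. It was kept apart from both regions. The word clone is used here for each numbered derivative. Libraries of a clone repeat that clone, and nothing in the labels says that they came from separate cultures, so p-values measure the spread between these libraries. Whether the WT cells passed through the editing steps is not given in the sources used here.

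Plasminogen is a circulating zymogen that the tissue-type activator (PLAT) and the urokinase-type activator (PLAU) cut into plasmin, a serine protease that dissolves fibrin and matrix. PLAUR is the cell surface receptor that holds the urokinase. Serpins are serine protease inhibitors that trap their target by a change of shape. Kunitz-domain inhibitors such as TFPI and TFPI2 block the active site like a plug. In melanoma, cell surface plasmin formation is known for its part in matrix breakdown and invasion.

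Sequence before the gene start is shown for TFPI2, by which the genes were chosen, for PLAUR, whose window matched the same search pattern, and for SERPINA3, which had the largest ratio between group means. The set of RefSeq starts used here gave a window of 250 bases for 6 of the 8 genes on GRCh38.p14. SERPINF1 and PLAT had no entry in that set. The motifs searched on both strands were TGANTCA (a loose form of AP-1 sites, which mostly have C or G at N), ACAATG and ACAAAG (letters of SOX sites), CATGTG (an E-box of MITF) and CACGTG (the symmetric E-box). The letters TGANTCA were found in the windows of TFPI2 (at -87 to -81 from the start) and PLAUR (at -186 to -180), and in 6.57% of all 35116 windows. That share allows any base at N, which was A in TFPI2 and G in PLAUR. GENCODE 29 annotates 238 of the 250 bases of the TFPI2 window and all 250 of the PLAUR window as noncoding exon of the same gene in at least 1 transcript. Each is therefore shown as 30 bases around the match, which is in capitals, 5′ to 3′ on the gene's strand:
TFPI2, chr7:93890822-93890851, minus strand: gtccccgtgcaTGAATCAgccacccctcag
PLAUR, chr19:43670337-43670366, minus strand: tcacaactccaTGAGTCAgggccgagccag
The SERPINA3 window held ACAAAG at -222 to -217, letters found in 13.7% of all windows. Its 236 bases before the first SERPINA3 exon are shown, and 94 bases of the window overlap an exon of the gene AL049839.2:
SERPINA3, chr14:94612141-94612376, plus strand: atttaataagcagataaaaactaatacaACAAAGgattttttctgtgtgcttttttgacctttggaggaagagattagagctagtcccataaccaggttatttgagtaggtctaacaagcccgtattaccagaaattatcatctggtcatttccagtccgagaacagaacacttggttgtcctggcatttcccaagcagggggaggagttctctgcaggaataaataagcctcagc
Of the genes not shown, PLAU held ACAAAG in each of its 2 windows, 3 matches in all. SERPINE2 held CATGTG 5 times and CACGTG once in 1 of its 2 windows, letters found in 9.42% and 6.34% of all windows. The TFPI window held none of the motifs, and ACAATG was in no window of the 6 genes. A match is a description of letters and says nothing of binding in these cells.

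Levels are in TPM, which corrects each gene for its length and scales every library to the same total, so the depth behind them is unknown. Per library 14084 to 16140 genes had a TPM of at least 1. The mitochondrial share of a library was 0.968% to 4.92% in A375 and 4.71% to 19.4% in WM115. Ribosomal protein genes took 12.0% to 13.6% in WM115 WT libraries, 11.5% in clone 1.3 library 3 and 16.2% to 18.6% in the other libraries of WM115 clones. SOX10 was at 381 to 876 TPM in A375 and at 9.56 to 553 TPM in WM115, the lowest in clone 1.2 library 3. As to the labelled cell type, all 8 melanocytic markers reached 1 TPM in WM115 WT cells, and MLANA, TYR, DCT and TYRP1 stayed below 1 TPM in A375 WT cells. The epithelial markers KRT5, EPCAM and CDH1 and the leukocyte markers PTPRC and CD3E were below 1 TPM in every library of both lines, while other genes of those lists were present. KRT14 reached 30.4 TPM in A375 and 3.65 TPM in WM115, CD68 was at 18.2 to 165 TPM in A375 and 225 to 757 TPM in WM115, and LYZ was at 1.23 to 12.3 TPM in A375. Of 4 endothelial markers, VWF stayed below 1 TPM in every library, CDH5 reached 4.04 TPM, KDR 8.31 TPM and PECAM1 12.0 TPM, each in WM115. The summed level of 5 fibroblast markers was 371 to 862 TPM in WM115 and 1.72 to 14.3 TPM in A375. COL1A2 alone was at 365 to 857 TPM in WM115, where no other gene of that list exceeded 26.4 TPM. Mean levels in WT cells were lower in WM115 than in A375 for COL1A1, DCN and PDGFRA, and higher for COL1A2 and LUM. By correlation over the 2000 most variable genes, 19 of 21 WM115 libraries and 12 of 18 A375 libraries were nearest to their own group. WM115 clone 1.3 library 2 was nearest to clone 1.2 (r = 0.699, own group -0.103), and library 3 of that clone was nearest to WT (r = 0.600, own group 0.053).

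The level of the 8 genes in unedited cells ran from trace to among the most abundant transcripts. SERPINE2, which encodes protease nexin-1, an inhibitor of thrombin, urokinase and tissue-type activator, ranked 43 in A375 WT and 67 in WM115 WT by mean TPM. Its level was 3025 ± 439 TPM in A375 WT (SD, n = 4) and 1851 ± 492 TPM in WM115 WT (SD, n = 4). PLAU was lowest, at 0.0675 ± 0.066 TPM (SD, n = 4) and 0.668 ± 0.263 TPM (SD, n = 4). PLAT stood at 91.3 ± 15.4 TPM (SD, n = 4) in A375 WT and 67.5 ± 27.4 TPM (SD, n = 4) in WM115 WT, and PLAUR at 59.6 ± 7.76 TPM (SD, n = 4) and 26.7 ± 9.74 TPM (SD, n = 4). The WT cells thus held transcripts of tissue-type activator and of the urokinase receptor, with urokinase itself at no more than 1.004 TPM in any WT library. PLG, which encodes plasminogen, did not exceed 0.084 TPM in any library.

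**Figure D1:**
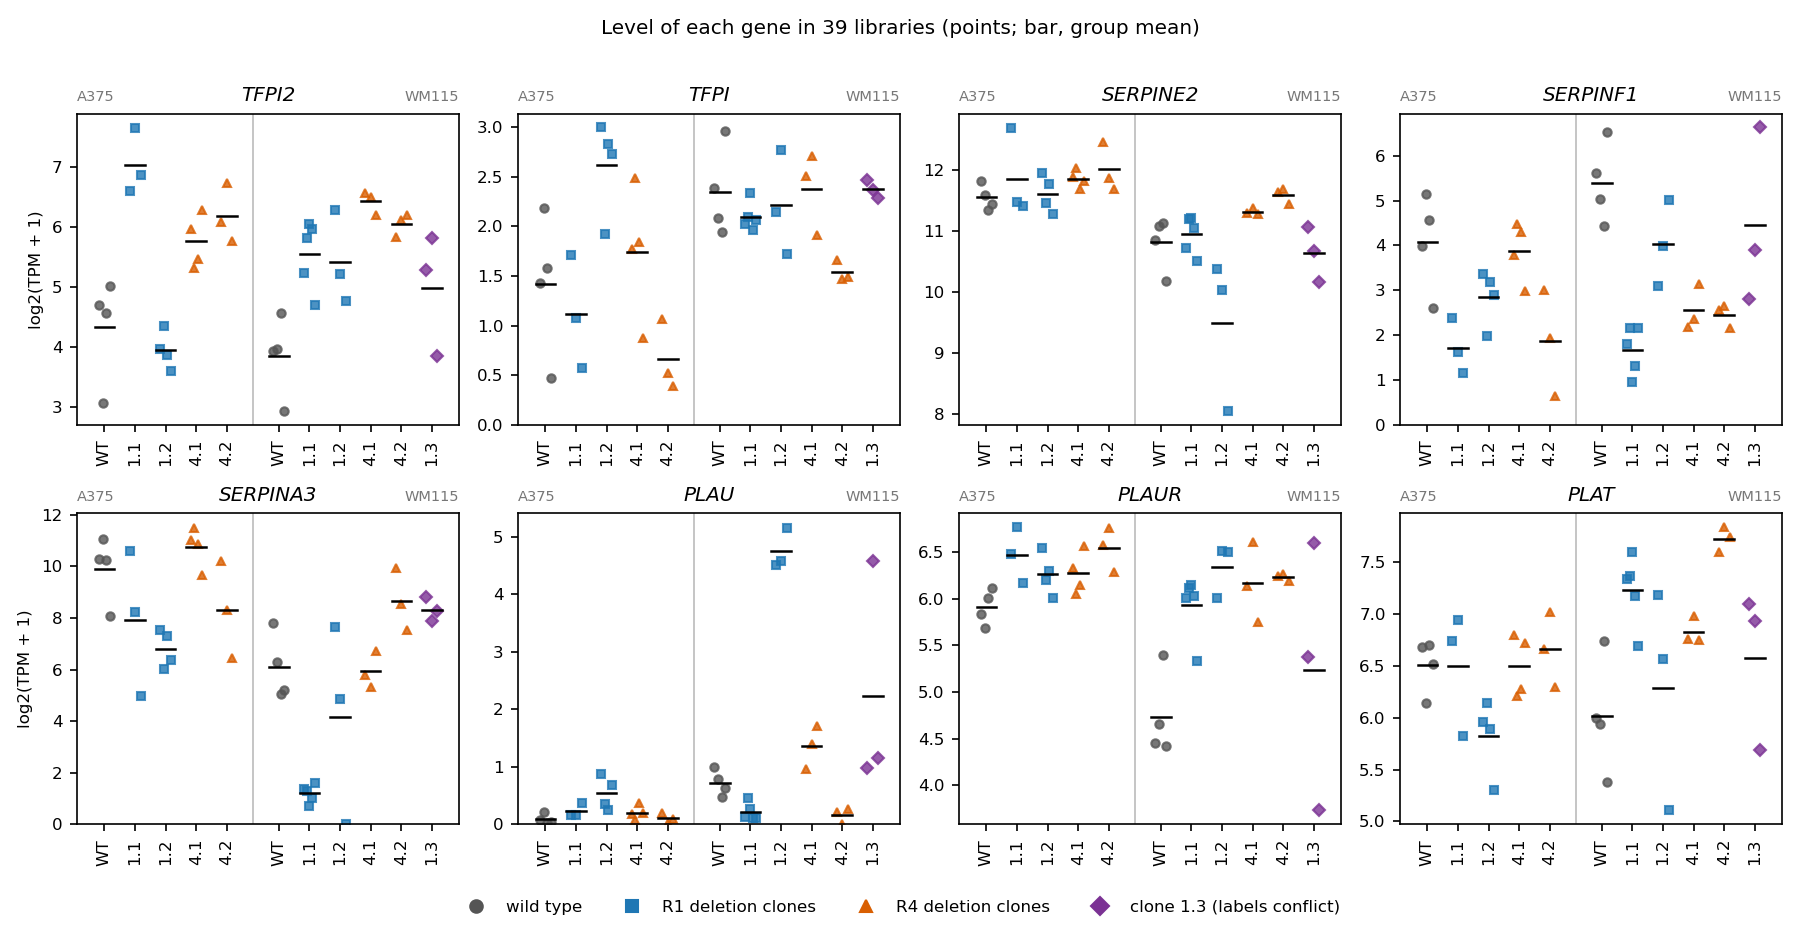
Level of each of the 8 genes as log2(TPM + 1) in each of 39 libraries (points), by line and clone, with the group mean as a bar. SERPINA3 and SERPINF1 spread widely within groups, and PLAU was above 20 TPM only in the 3 libraries of WM115 clone 1.2 and in library 2 of WM115 clone 1.3.

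WT cells of the lines were compared with limma on log2(TPM + 1). A gene was called where the Benjamini-Hochberg adjusted p over all genes tested was under 0.05 and the log2 difference was at least 1 in size. In WM115 WT against A375 WT, 2 of the 8 genes were called, both lower in WM115, beside 20.0% of all 18662 genes. SERPINA3, which encodes alpha-1-antichymotrypsin, an inhibitor of cathepsin G and chymotrypsin-like proteases, was at 1237, 2133, 1213 and 271 TPM in A375 WT. In WM115 WT it was at 222, 77.2, 32.5 and 35.6 TPM, below every A375 WT library (log2 difference -3.83, SE 1.05, limma adjusted p = 0.00304). PLAUR was at 56.2, 50.6, 63.2 and 68.2 TPM in A375 WT and at 21, 24.2, 41.1 and 20.5 TPM in WM115 WT. Those groups also did not overlap (-1.18, SE 0.32, limma adjusted p = 0.00289). TFPI, the inhibitor of the tissue factor pathway of coagulation, was at 1.90 TPM in A375 WT and 4.27 TPM in WM115 WT, 0.92 apart on the log2 scale, under the minimum size (SE 0.32, limma adjusted p = 0.0156). TFPI2 did not pass (-0.49, SE 0.41, limma adjusted p = 0.334). SERPINF1 (1.32), PLAU (0.63), PLAT (-0.50) and SERPINE2 (-0.74) did not pass either, with limma adjusted p-values of 0.0571 to 0.218. With a pseudocount of 0.1 in place of 1, TFPI and PLAU were called higher in WM115 as well. Without A375 WT library 2 or WM115 WT library 3, TFPI and SERPINF1 were called higher, and without WM115 WT library 2 TFPI was. In such bulk samples, a lower share of cells with a transcript and less of it per cell cannot be told apart.

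TFPI2 encodes a Kunitz-domain inhibitor of plasmin and trypsin that is secreted into the matrix. It lies on chromosome 7 (93885396 to 93890991, minus strand, GRCh38, ENSG00000105825). In A375 WT its level was 25.1, 7.43, 22.7 and 31.4 TPM. R4 clone 4.1 had 61.7, 38.8, 43.5 and 76.9 TPM, and R4 clone 4.2 had 66.6, 105 and 53.3 TPM, all above every WT library. The log2 differences from WT that chose the gene were 1.42 (SE 0.36) in clone 4.1 and 1.85 (SE 0.39) in clone 4.2. TFPI2 was also high in a clone of the other region: A375 R1 clone 1.1 had 96.1, 200 and 116 TPM. Of the R4 libraries only the highest, at 105 TPM, reached into that range. Clone 1.1 exceeded WT by 2.70 on the log2 scale (SE 0.39, limma adjusted p = 0.00142). That was the only call among the 7 genes tested in that clone, beside 0.731% of all genes tested. The test uses the same WT libraries as the differences that chose the gene. R1 clone 1.2 had 14.8, 19.5, 13.7 and 11.2 TPM, within the range of WT (-0.39, SE 0.36, limma adjusted p = 0.600). The call in clone 1.1 was lost in a fit of that clone and WT alone (limma adjusted p = 0.0912) and within libraries of a low mitochondrial share (0.199). It was also lost in a fit of that clone and WT blocked by replicate number, which left out WT library 4 (limma adjusted p = 0.278). Over 29 alternatives the limma adjusted p ran from 0.000901 to 0.278 and the difference from 2.28 to 2.92.

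In WM115 WT the TFPI2 level was 14.3, 14.7, 22.9 and 6.69 TPM. R4 clone 4.1 had 94.4, 89.4 and 73.0 TPM and R4 clone 4.2 had 56.1, 68.6 and 72.9 TPM, again all above WT, at log2 differences of 2.57 and 2.20 (SE 0.44 each). The R1 clones were raised too. Clone 1.1 had 36.6, 55.3, 65.2, 61.6 and 25.1 TPM (1.70, SE 0.39, limma adjusted p = 0.00474) and clone 1.2 had 77.4, 36.2 and 26.4 TPM (1.57, SE 0.44, limma adjusted p = 0.0178), and no library of either overlapped WT. These tests use the same WT libraries as the differences that chose the gene. Clone 1.3 had 38.2, 55.5 and 13.5 TPM, with the third library inside the WT range. The call in clone 1.2 was lost without WT library 4, which held the lowest WT value, and without clone 1.2 library 1. It was also lost in a fit of clone 1.2 and WT alone (limma adjusted p = 0.0595). With the replicate block that fit left out WT library 4 as well, and the call was lost (limma adjusted p = 0.172). Over 33 alternatives that p ran from 0.00669 to 0.172.

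In the order of group means, TFPI2 in A375 ran from R1 clone 1.1 (137 ± 55.1 TPM, SD, n = 3) through clone 4.2 (75.1), clone 4.1 (55.2) and WT (21.7) to R1 clone 1.2 (14.8 ± 3.48 TPM, SD, n = 4). Only clone 4.1 and WT were neighbours in that order whose libraries did not overlap. In WM115 it ran from clone 4.1 (85.6 ± 11.2 TPM, SD, n = 3) through clones 4.2 (65.9), 1.1 (48.8), 1.2 (46.7) and 1.3 (35.7) to WT (14.6 ± 6.61 TPM, SD, n = 4). There the neighbours without overlap were clones 4.1 and 4.2, by 73.0 against 72.9 TPM. The mean TFPI2 level was above that of WT in 8 of 9 clones, and A375 clone 1.2 was the exception. Most of the 8 are R4 clones or clone 1.3, whose values chose the gene, so the count is a description.

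**Figure D2:**
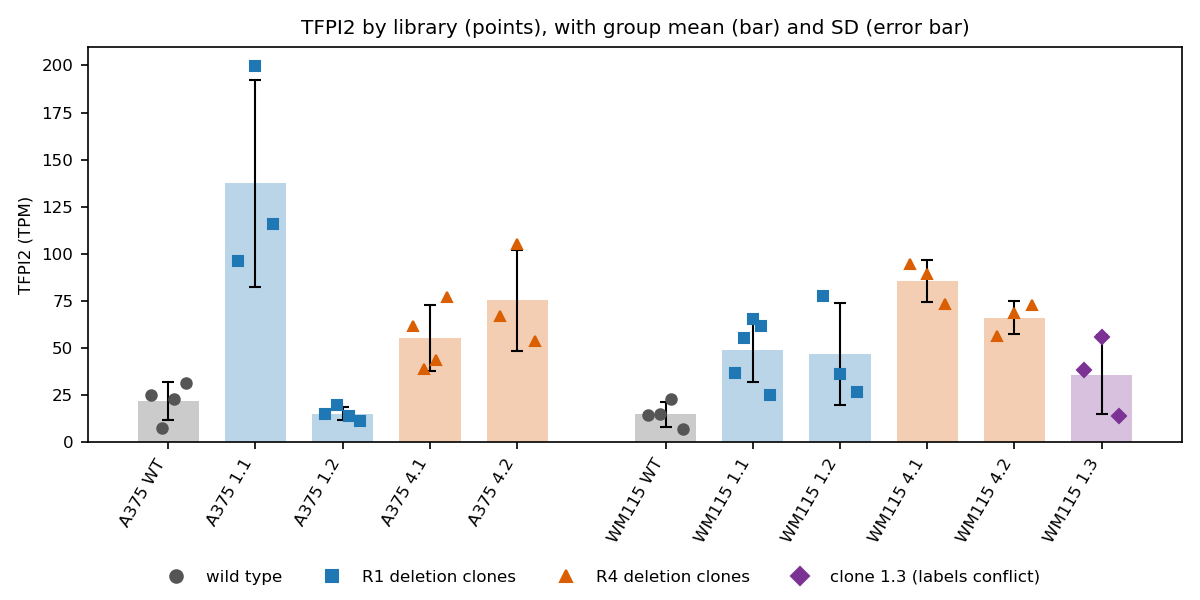
TFPI2 in TPM by library (points) for each line and clone, with the group mean (bar) and SD (error bar). The highest group mean is that of A375 R1 clone 1.1 (137 TPM) and the lowest that of A375 R1 clone 1.2 (14.8 TPM), both clones of the same deletion.

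The TFPI2 transcript with the largest share was TFPI2-201, at a median of 68.9% of the gene's TPM in A375 libraries and 63.6% in WM115. Its level followed that of the gene. In A375 it was 15.6 ± 6.15 TPM in WT (SD, n = 4) and 93.5 ± 37.4 in R1 clone 1.1 (SD, n = 3). In WM115 it was 9.28 ± 2.88 TPM in WT (SD, n = 4) and 53.0 ± 7.29 in R4 clone 4.1 (SD, n = 3). The deposited transcript levels are estimates and were not tested.

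TFPI (chromosome 2, 187464230 to 187565760, minus strand, ENSG00000003436), the paralog that inhibits factor Xa and the tissue factor complex, did not follow TFPI2. Its level stayed at or below 7.01 TPM in every library. A375 R1 clone 1.2, the clone with least TFPI2, held the most TFPI, at 7.01, 2.80, 6.12 and 5.63 TPM, against 1.70, 3.53, 1.99 and 0.388 TPM in WT. The other A375 clones differed from WT by -0.30 (clone 1.1), 0.33 (clone 4.1) and -0.76 (clone 4.2), none of them called. The difference of clone 1.2 did not pass (1.21, SE 0.38, limma adjusted p = 0.0591), and was called without WT library 2, clone 1.2 library 2, or clone 4.1 library 2 or 4 (1.21 to 1.46). In WM115 R4 clone 4.2 TFPI was at 2.17, 1.78 and 1.82 TPM, below every WT library (4.23, 3.24, 2.84 and 6.76 TPM). The difference of -0.80 (SE 0.24, limma adjusted p = 0.0276) was smaller than the minimum size, and with a pseudocount of 0.1 it was -1.04.

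Among the activators, PLAT (ENSG00000104368) moved in WM115 and not in A375 by the call rule. In WM115 WT it was at 63.0, 60.6, 106 and 40.6 TPM. R4 clone 4.2 held 194, 228 and 214 TPM, above every WT library (1.72, SE 0.40, limma adjusted p = 0.006). R1 clone 1.1 held 161, 165, 193, 143 and 102 TPM (1.22, SE 0.35, limma adjusted p = 0.018), its lowest library inside the WT range. That call was lost without WT library 4 (limma adjusted p = 0.0699) and with a term for a high or low mitochondrial share (0.0792), over a range of 0.000902 to 0.344. R4 clone 4.1, at 108, 125 and 107 TPM, lay above WT and did not pass (0.82, SE 0.40, limma adjusted p = 0.142). Clone 1.2 was uneven at 145, 94.1 and 33.5 TPM. In A375 PLAT ran from 38.6 to 129 TPM, with the lowest mean in R1 clone 1.2 (-0.69, SE 0.25, limma adjusted p = 0.104). All libraries of that clone lay below WT, by 69.5 against 69.7 TPM at the nearest. The difference between the lines in these effects was not tested.

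PLAU (chromosome 10, 73909177 to 73917497, plus strand, ENSG00000122861), the urokinase, was present above 3 TPM in 4 of 39 libraries. WM115 R1 clone 1.2 held 21.8, 22.9 and 34.6 TPM against 1.004, 0.728, 0.389 and 0.551 TPM in WT (4.02, SE 0.54, limma adjusted p = 0.000144). The fourth was library 2 of clone 1.3, at 22.8 TPM, the library whose profile lay nearest to clone 1.2. The other libraries of clone 1.3 had 0.973 and 1.23 TPM. R1 clone 1.1, with the same region deleted, had 0.076 to 0.379 TPM and R4 clones had 0 to 2.27 TPM. In A375 no library exceeded 0.834 TPM, so PLAU was not tested there. The call in WM115 clone 1.2 held under each of 33 alternatives, with a limma adjusted p of 1.98e-10 to 0.019.

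PLAUR (chromosome 19, 43646095 to 43670547, minus strand, ENSG00000011422), the urokinase receptor, was called in 4 of the 5 WM115 clones. WT had 21, 24.2, 41.1 and 20.5 TPM. It rose in R1 clone 1.1 (63.3, 68.5, 69.8, 64.5 and 39.4 TPM, a difference of 1.19, SE 0.38, limma adjusted p = 0.0292) and in R1 clone 1.2 (63.3, 90.5 and 89.8 TPM, 1.61, SE 0.43, limma adjusted p = 0.0138). It rose in R4 clone 4.1 (69.6, 96.5 and 52.7 TPM, 1.43, SE 0.43, limma adjusted p = 0.0214) and in R4 clone 4.2 (74.9, 76.1 and 72.1 TPM, 1.502, SE 0.43, limma adjusted p = 0.0191). All libraries of clones 1.2, 4.1 and 4.2 were above WT, and library 5 of clone 1.1 was inside the WT range. Clone 1.3 spread from 12.3 TPM in library 3 to 95.7 TPM in library 2 (0.50, SE 0.43, limma adjusted p = 0.663). Without its library 3, clone 1.3 was called for PLAUR (1.25, limma adjusted p = 0.0335), PLAU (2.05, limma adjusted p = 0.0452) and SERPINF1 (-2.04, limma adjusted p = 0.0356). In A375 the differences were 0.35 to 0.63 in 4 clones and none was called, while A375 WT already stood at 50.6 to 68.2 TPM. All libraries of A375 clones 1.1 (from 70.8 TPM) and 4.2 (from 77.1 TPM) lay above WT, and clones 1.2 and 4.1 overlapped it. The WM115 calls were near the threshold. Those of clones 1.1, 4.1 and 4.2 were lost without WT library 1 or 4, that of clone 1.1 also without WT library 2 or any of its own libraries 1 to 4, those of clones 4.1 and 4.2 without their own library 1 or 2, and that of clone 1.2 without its library 3. Those of clones 1.1 and 4.1 were lost with a term for a high or low mitochondrial share (limma adjusted p = 0.134 and 0.103, against highest values of 0.357 and 0.510 over all alternatives). The share of ribosomal protein transcripts moved the same way as PLAUR, low in WT and in clone 1.3 library 3 and high in the other clones, and its part in the result was not tested.

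Of the serpins, SERPINE2 (chromosome 2, 223975112 to 224039319, minus strand, ENSG00000135919) had the smallest ratio of highest to lowest group mean of the 8 genes in A375, 1.40. Group means there ran from 3025 TPM in WT to 4239 TPM in R4 clone 4.2, the groups of each neighbouring pair overlapped, and no clone was called. In WM115 it was at 1843, 2154, 2247 and 1159 TPM in WT. R4 clone 4.2 held 3170, 3293 and 2780 TPM and R4 clone 4.1 held 2520, 2648 and 2486 TPM, above all WT libraries, with differences of 0.78 (SE 0.39, limma adjusted p = 0.162) and 0.51 (SE 0.39, limma adjusted p = 0.359) that did not pass. R1 clone 1.2 was lower, at 1331, 1041 and 263 TPM (-1.33, SE 0.39, limma adjusted p = 0.0209). The lowest value belongs to library 3, the library with 9.56 TPM of SOX10. Without that library and the pair of clone 1.3 libraries that stood apart, the difference was -0.61 and was not called (limma adjusted p = 0.119), and without WT library 2 the call was lost as well (0.0544, range over 33 alternatives 0.00511 to 0.181).

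SERPINF1 (chromosome 17, 1761959 to 1777574, plus strand, ENSG00000132386) encodes pigment epithelium-derived factor, a serpin without inhibitory activity that is known as an antagonist of vessel growth. In WM115 WT it was at 47.9, 31.6, 20.7 and 90.5 TPM. It fell in R1 clone 1.1, to 2.47, 3.45, 0.933, 1.498 and 3.48 TPM (-3.72, SE 0.58, limma adjusted p = 0.000235). It fell as well in R4 clone 4.1, to 3.52, 4.11 and 7.76 TPM (-2.84, SE 0.66, limma adjusted p = 0.00487), and in R4 clone 4.2, to 4.92, 5.25 and 3.46 TPM (-2.94, SE 0.66, limma adjusted p = 0.00488). No library of those clones overlapped WT. R1 clone 1.2, at 7.57, 15.0 and 31.2 TPM, did not pass with all libraries (-1.36, SE 0.66, limma adjusted p = 0.142). Without the 3 libraries that stood apart it was called (-1.85, limma adjusted p = 0.0205, range over 33 alternatives 0.0205 to 0.388). Clone 1.3 held 6.04, 13.9 and 98.1 TPM, the last in the library nearest to WT. In A375 all 4 clones had lower means than WT (14.9, 34.4, 22.7 and 5.05 TPM), the lowest in R1 clone 1.1 with 4.18, 2.10 and 1.23 TPM (-2.35, SE 0.59, limma adjusted p = 0.0675). Without WT library 4, which held 5.05 TPM, SERPINF1 was called lower in A375 clones 1.1 and 4.2 and SERPINA3 in clone 1.2, and the A375 calls came to 4. Leaving out library 1 or 3 of clone 4.2 gave the call of SERPINF1 in clone 1.1 and of SERPINA3 in clone 1.2 as well.

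SERPINA3 (chromosome 14, 94612377 to 94624055, plus strand, ENSG00000196136) ranged from 0 TPM in WM115 clone 1.2 library 3 to 2878 TPM in an A375 clone 4.1 library. Its ratio of highest to lowest group mean in WM115, 376, was the largest of the 8 genes. In WM115 R1 clone 1.1 it fell from the WT levels given above to 1.59, 1.46, 0.621, 1.04 and 2.06 TPM (-4.89, SE 0.98, limma adjusted p = 0.00188). R1 clone 1.2 was scattered at 198, 28.0 and 0 TPM and was called lower without its library 1 (-3.66, limma adjusted p = 0.0122), and R4 clone 4.1 lay among WT at 54.3, 39.6 and 105 TPM. Clone 1.3, at 453, 233 and 305 TPM, had all libraries above WT and did not pass (2.23, SE 1.11, limma adjusted p = 0.404). R4 clone 4.2 was at 975, 368 and 185 TPM (2.58, SE 1.11, limma adjusted p = 0.107), which passed without clone 1.2 library 1 or 3 and without the 3 libraries that stood apart (limma adjusted p = 0.0117, range over 33 alternatives 0.000391 to 0.420). In A375, R1 clone 1.2 held 184, 63.7, 157 and 82.9 TPM, below all WT libraries (-3.11, SE 0.97, limma adjusted p = 0.0584), and was called when fitted with WT alone (0.0105) and without clone 1.1 library 1 or 3 (0.0233 and 0.0171, range over 29 alternatives 0.0105 to 0.684). R1 clone 1.1 spread from 30.3 to 1530.5 TPM and R4 clone 4.2 from 86.2 to 1189 TPM within a clone.

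**Figure D3:**
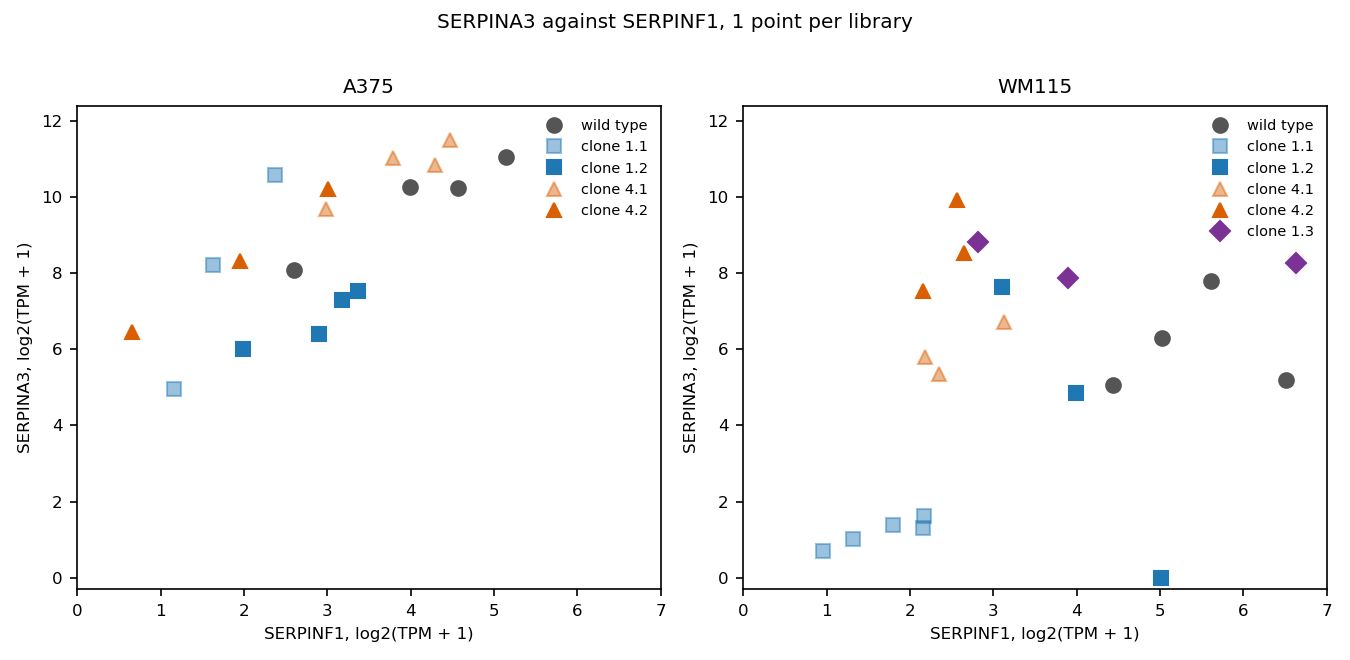
SERPINA3 against SERPINF1, each as log2(TPM + 1), with 1 point per library, in A375 (left) and WM115 (right). In A375 the library highest in SERPINF1 within a group is also the highest in SERPINA3 in 5 of 5 groups, and in WM115 in 2 of 6.

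Within groups some of these genes were high or low in the same libraries. Of 6 pairs of genes examined, chosen after the values were seen, SERPINA3 and SERPINF1 had their highest value in the same library in 5 of 5 A375 groups and 2 of 6 WM115 groups. In WM115 SERPINE2 and PLAT did so in 6 of 6 groups, and in A375 in 0 of 5. The library with most SERPINF1 had the least TFPI2 in 5 of 6 WM115 groups and 3 of 5 A375 groups. That with most SERPINA3 had the least TFPI2 in 3 of 6 WM115 and 3 of 5 A375 groups. Most SERPINF1 with least PLAUR, and most PLAT with most PLAUR, each met in 4 of 6 WM115 and 2 of 5 A375 groups. With so few libraries in a group, some matches arise by chance. Libraries of a group share 1 clone, and these counts are descriptions.

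Counted over the clones, WM115 held most of the calls. In A375 against WT, 1 of 26 tests was called, the rise of TFPI2 in clone 1.1. That test shares its WT libraries with the differences that chose TFPI2. None of the 7 genes tested in R1 clone 1.2 was called by limma, beside 4.01% of all genes, and 5 had an unadjusted p under 0.05. None of the 6 tested in R4 clone 4.1 (0.653% of all genes) or in clone 4.2 (0.473%) was called, with 1 and 2 genes at an unadjusted p under 0.05. With replicate number as a block, which pairs clone 4.1 with WT, none was called there either, beside 1.61% of all genes. In WM115 against WT, 14 of 37 tests were called, 9 higher and 5 lower. The 9 include TFPI2 in R1 clones 1.1 and 1.2, which share WT libraries with the choice in the same way. R1 clone 1.1 had 5 of 8 beside 4.88% of all genes, R1 clone 1.2 had 4 of 8 beside 7.61%, R4 clone 4.1 had 2 of 7 beside 7.57%, and R4 clone 4.2 had 3 of 7 beside 6.60%. Clone 1.3 had 0 of 7 in limma beside 0.618%, with 1 gene at an unadjusted p under 0.05. There TFPI differed by 0.03, SERPINE2 by -0.18 and PLAT by 0.56 from WT. The clones of a line share its WT libraries. The WM115 count fell to 9 without WT library 4, which had the lowest TFPI2, PLAT and SERPINE2 and the highest SERPINF1 of the WT libraries. It was 15 without the 3 libraries that stood apart, which kept 13 of the 14 calls. Within libraries of a high mitochondrial share, a fit of fewer libraries, 2 of the 14 remained, SERPINF1 in clone 1.1 and PLAU in clone 1.2. Of the 12 calls lost there, 10 kept a difference of at least 1 in size, among them SERPINA3 in clone 1.1 (-4.77), SERPINF1 in clone 4.2 (-3.00) and PLAT in clone 4.2 (1.78). Clone 4.1 entered that fit with 1 library, which is assumed to vary like the other groups.

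**Figure D4:**
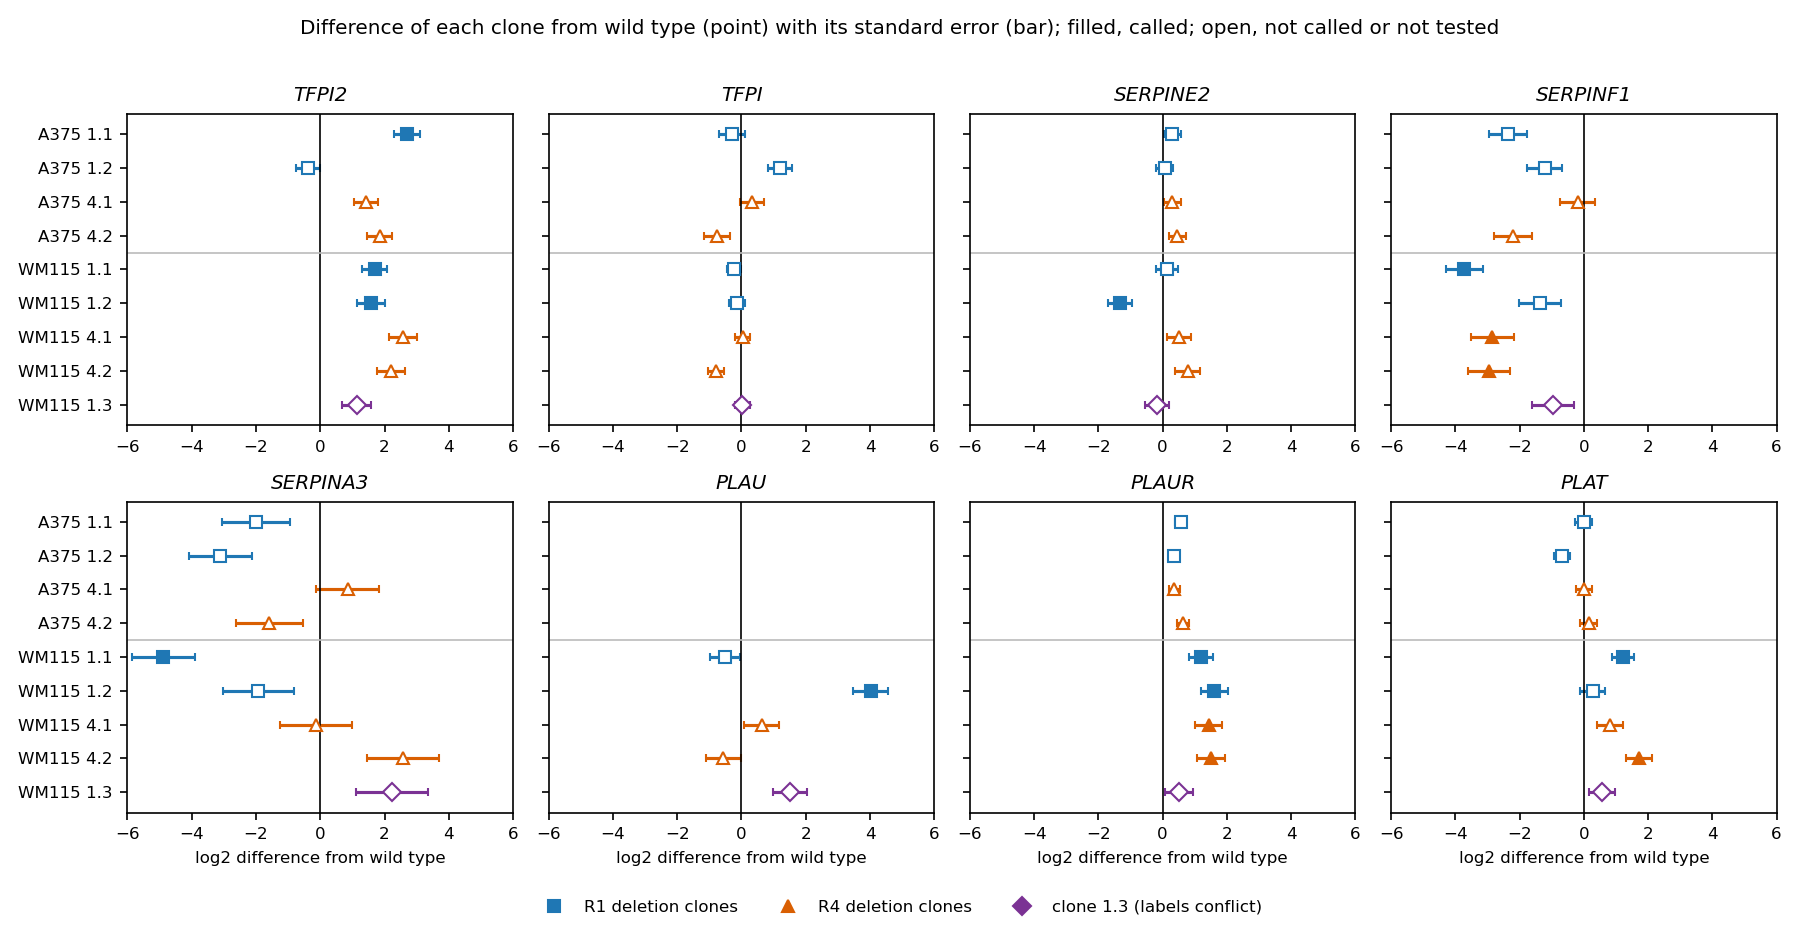
Difference of each clone from WT on the log2(TPM + 1) scale (point) with its standard error (bar), for the 8 genes. Filled points are called and open points are not called or, for TFPI2 in R4 clones and clone 1.3, not tested; PLAUR is filled in 4 WM115 clones and SERPINF1 in 3.

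The clones of a single deletion were then compared with each other. In A375, R1 clones 1.1 and 1.2 differed in 2 of 7 genes, beside 6.16% of all genes. TFPI2 was higher in clone 1.1 (3.08, SE 0.39, limma adjusted p = 6.35e-05) under each of 39 alternatives, and TFPI was lower (-1.50, SE 0.41, limma adjusted p = 0.0226). The alternatives counted in this paragraph include leaving out libraries of the other line, which cannot change the fit of the line compared. In WM115, R1 clones 1.1 and 1.2 differed in 4 of 8 genes, beside 11.8% of all genes. SERPINE2 was higher in clone 1.1 (1.46, SE 0.37, limma adjusted p = 0.00518). PLAU (-4.54, SE 0.52, limma adjusted p = 6.41e-06), SERPINF1 (-2.36, SE 0.63, limma adjusted p = 0.00736) and SERPINA3 (-2.96, SE 1.06, limma adjusted p = 0.0367) were lower. Without the 3 WM115 libraries that stood apart the SERPINE2 difference was 0.74, under the minimum size, and without clone 1.2 library 3 the SERPINF1 call was lost (limma adjusted p = 0.069). The SERPINA3 call was lost under 12 of 39 alternatives, and that of TFPI in A375 under 7 of 38. R4 clones 4.1 and 4.2 differed by the call rule in 0 of 7 genes in A375 (2.23% of all genes) and in 0 of 8 in WM115 (2.63%) in limma, with 3 genes at an unadjusted p under 0.05 in each line. The largest of those differences were in SERPINA3, 2.44 (SE 1.05) in A375 and -2.71 (SE 1.19) in WM115, of opposite sign. The last was called when clones 4.1 and 4.2 were fitted alone (limma adjusted p = 0.0243, range over 39 alternatives 0.0212 to 0.396). The counts for R4 clones include TFPI2, whose R4 values chose the gene. Its differences of -0.43 in A375 and 0.37 in WM115 are descriptions and not tests of likeness between those clones.

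With the clone as the unit, 4 R4 clones were compared with 4 R1 clones, with the line as a covariate. Limma called 0 of 7 genes and 0% of all 18099 genes tested, with 1 of the 7 at an unadjusted p under 0.05. That gene was SERPINA3, higher in R4 clones by 3.40 (SE 0.94, limma adjusted p = 0.984). With libraries in place of clones as units it was called (3.70, SE 0.75, limma adjusted p = 0.00392), which treats libraries of 1 clone as independent. TFPI2 was higher in R4 than in R1 clones by 0.61 (SE 0.55), a description. That value was 1.26 without A375 clone 1.1 and 0.02 without A375 clone 1.2, so it rested on which of those clones was present. PLAUR differed by 0.05 (SE 0.14, limma adjusted p = 0.989). SERPINE2 (0.72), PLAT (0.47), SERPINF1 (0.12), TFPI (-0.43) and PLAU (-0.98) had limma adjusted p-values of 0.984 to 0.996.

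The rest of the plasminogen system was examined through lists of related genes. Of 20 genes examined in it, 12 were tested in A375 and 11 in WM115. SERPINA5, the protein C inhibitor, which also inhibits urokinase, fell in both WM115 R1 clones, with differences of -4.59 (SE 0.60, limma adjusted p = 4.03e-05) and -2.26 (SE 0.68, limma adjusted p = 0.0247). The WT level was 28.7 ± 15.8 TPM (SD, n = 4) and that of clone 1.1 was 0.113 ± 0.0508 TPM (SD, n = 5), while in clone 1.2 it ran from 0 to 23.7 TPM. SERPINB2, plasminogen activator inhibitor 2, named after its values were seen, differed between the R4 clones of WM115 (4.63, SE 0.43, limma adjusted p = 1.31e-06). It was at 135 ± 37.3 TPM in clone 4.1 (SD, n = 3), at 4.66 ± 2.55 in clone 4.2 (SD, n = 3) and at 2.14 ± 0.583 in WT (SD, n = 4). By direction, 1 gene of this list rose and 0 fell in each WM115 R4 clone, 0 rose and 1 fell in R1 clone 1.1, 0 rose and 2 fell in R1 clone 1.2, and none was called in clone 1.3. Over all genes tested, 3.20% and 2.52% rose in clones 4.1 and 4.2, and 3.66% and 3.11% fell in clones 1.1 and 1.2, and counts of 1 among 11 genes are not read as a result about the list. In A375, 1 fell in clone 1.2, beside 1.44% of all genes, and none was called in clones 1.1, 4.1 and 4.2. The median difference of the tested genes of the list was 0.11 in clone 1.1, 0.13 in clone 1.2, 0.13 in clone 4.1, 0.25 in clone 4.2 and 0.28 in clone 1.3 of WM115, beside -0.12, -0.02, -0.10, -0.10 and -0.03 over all genes tested.

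**Figure D5:**
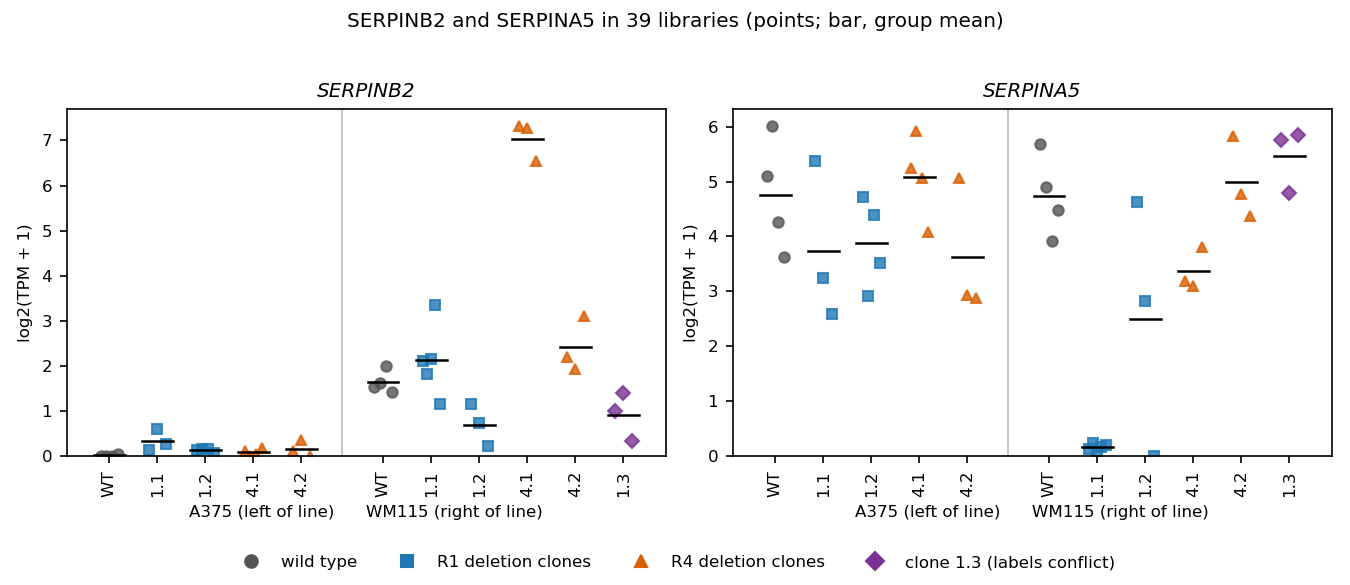
Level of SERPINB2 and SERPINA5 as log2(TPM + 1) in each library (points), by line and clone, with the group mean as a bar. In WM115, SERPINB2 has its highest mean in R4 clone 4.1 (135 TPM) and SERPINA5 its lowest in R1 clone 1.1 (0.113 TPM).

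Of 27 other serpins, 8 were tested in A375 and 7 in WM115. In WM115 R4 clones 4.1 and 4.2, 4 and 3 of the 7 rose and 0 fell, beside 3.20% and 2.52% of all genes that rose. Those called in both were SERPIND1 (3.14 and 2.58), the heparin cofactor that inhibits thrombin, SERPINB7 (2.06 and 1.72) and SERPINB8 (1.71 and 1.02). In the WM115 R1 clones 0 were called in clone 1.1 and 2 rose in clone 1.2, and in A375 the only call was a rise of SERPINB7 in clone 1.2 (3.31, SE 0.54). Of 14 genes of coagulation and thrombin reception, 6 were tested in A375 and 7 in WM115. In WM115, 0 rose and 2 fell in clone 1.1, 2 rose and 0 fell in clone 1.2, 0 rose and 1 fell in clone 4.1, and 1 rose and 3 fell in clone 4.2. In A375, 1 of 6 rose in clone 1.1 and 2 of 6 in clone 1.2. The shares of all genes that fell were 3.66% in WM115 clone 1.1, 4.37% in clone 4.1 and 4.08% in clone 4.2, and those that rose were 4.49% in WM115 clone 1.2, 0.186% in A375 clone 1.1 and 2.57% in A375 clone 1.2. PROS1, which encodes the anticoagulant cofactor protein S, fell in both WM115 R4 clones, from 27.8 ± 9.76 TPM in WT (SD, n = 4) to 3.27 ± 0.646 and 1.67 ± 0.553 TPM (SD, n = 3 each). Its differences were -2.70 (SE 0.30, limma adjusted p = 8.3e-06) and -3.39 (SE 0.30, limma adjusted p = 1.76e-06). In the WT cells of the lines, the thrombin receptor F2R and its relative F2RL2 were higher in WM115 by 2.39 and 3.95, and the protease trap A2M by 4.60, while S100A10, the annexin partner that binds plasminogen, was lower (-2.01). SERPINB2 (1.62) and PROS1 (1.95) were higher in WM115, and SERPINA1 (-1.98), SERPINB8 (-1.14) and SERPINA6 (-1.01) were lower. Each of these passed in limma, with adjusted p-values of at most 0.00325. Of 14 other Kunitz-domain genes, 6 were tested in A375 and 5 in WM115, and no gene of that list rose, or fell, in each clone of a region. Single clones had 1 call each: COL6A3 rose in A375 clone 4.2 (2.06), SPINT1 fell in WM115 clones 1.1 (-1.08) and 1.3 (-1.13), and COL7A1 fell in WM115 clone 4.1 (-1.08). Over all genes tested, 0.108% rose in A375 clone 4.2. In WM115 clones 1.1, 1.3 and 4.1, 3.66%, 0.194% and 4.37% fell. These counts of 1 are not read as a result about the list. Between WT cells COL6A3 was lower in WM115 (-1.74) and PAPLN (1.27) and COL7A1 (1.02) were higher.

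Markers of several cell types differed between WM115 clones and WT. The summed level of the melanocytic markers was 1044 to 2890 TPM in WT, 791 to 1138 in clone 4.1, 661 to 1065 in clone 4.2, 1120 to 1865 in R1 clone 1.1 and 29.4 to 936 in R1 clone 1.2. Of the 8 markers, clone 4.1 had 6 lower, clone 4.2 had 5, clone 1.1 had 1 and clone 1.2 had 4, and none rose. Over all genes tested, 4.37%, 4.08%, 3.66% and 3.11% fell in those clones, in that order. MLANA and TYR were below 1 TPM in all libraries of both R4 clones. Of the keratinocyte and epithelial markers only KRT14 was tested, and it rose in clones 4.1 (1.504) and 4.2 (1.34). The summed level of that list was 0.212 to 0.627 TPM in WT, 2.04 to 3.65 TPM in clone 4.1 and 1.47 to 2.58 TPM in clone 4.2. Of 2 endothelial markers tested, 1 rose in each of clones 1.2, 4.1 and 4.2, with summed levels of 2.46 to 5.91 TPM in WT and 3.64 to 16.3, 5.37 to 6.99 and 4.09 to 7.82 TPM in those clones. Of 5 fibroblast markers, 1 fell in clones 1.1, 1.2 and 4.2 each and 1 rose in clones 1.2 and 4.1 each, and no leukocyte marker was called. Over all genes tested, 4.49% rose in clone 1.2, 3.20% in clone 4.1 and 2.52% in clone 4.2. Counts of 1 in such short lists are not read as a result about the list. In A375, 1 of 4 melanocytic markers tested fell in clone 1.1 and 2 of 4 fibroblast markers rose in clone 1.2. Over all genes tested, 0.545% fell in A375 clone 1.1 and 2.57% rose in A375 clone 1.2. The part of these markers in the results for the 8 genes was not tested.

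The genes most like TFPI2 over the 11 group means, centred by line, were PMEPA1 (Pearson's r = 0.874), LYPD1 (0.852) and CORO2B (0.851) among 1699 genes compared. PMEPA1 was at 743 ± 286 TPM in A375 clone 1.1 (SD, n = 3) and 144 ± 69.1 TPM in A375 clone 1.2 (SD, n = 4), the highest and lowest A375 groups, as for TFPI2. In WM115 its lowest group was WT, at 134 ± 114 TPM (SD, n = 4). LYPD1 had its highest A375 mean in clone 1.1 too, at 146 ± 70.2 TPM (SD, n = 3). In WM115 it departed from TFPI2, since clones 1.2 and 1.3, at 15.1 ± 5.29 and 16.7 ± 13.1 TPM (SD, n = 3 each), had lower means than WT, at 24.9 ± 27.4 TPM (SD, n = 4). CORO2B had its highest A375 mean in clone 4.1, at 38.8 ± 11.2 TPM (SD, n = 4), beside 37.3 ± 11.5 TPM in clone 1.1 (SD, n = 3), and in WM115 its means ran from 0.804 TPM in WT to 2.41 TPM in clone 4.1. The group means share the WT libraries and the composition of each line, and these are descriptions.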

How the data were processed

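The authors deposited 1 gene table and 1 transcript table in TPM, and the submitters' processing notes name DRAGEN and GRCh38. RNA was poly-A selected, per the labels' protocols. The 60871 lines of the gene table hold 60671 genes, and repeated lines were used a single time. Each table has 6 columns that match no sample and were not used. Values were tested as log2(TPM + 1), two-sided, with limma 3.58.1 in R 4.3.3 (variance trend, 1 coefficient per group, each line fitted apart, WT of both lines in a joint fit). A gene was tested where 3 or more libraries of the fit reached a TPM of 1 (16692 genes for A375, 16997 for WM115). Fold changes on this scale understate those of low genes. The fit was tested on simulated data. R4 was compared with R1 over clone means. Calls needed a Benjamini-Hochberg adjusted p under 0.05 and a log2 difference of at least 1.

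The 8 genes and the lists were chosen with earlier results of these data known. The rule named all 8 genes in each comparison; they are counted in each, and values that were not called are printed in part. From the lists, up to 4 genes with a call of the same sign in each clone of a region were named, and the 3 largest differences between WT cells. The 3 genes most like TFPI2 are those with the highest Pearson's r over 11 group means. Replicate numbers pair samples only for A375 clone 4.1 and WT, by the data: same-numbered libraries deviated together in 4 of 4 pairs (r = 0.358 to 0.802). Positions come from GENCODE 29, and promoter windows from RefSeq on GRCh38.p14. Alternatives were other pseudocounts, filters, scalings and designs, a replicate block, the mitochondrial share, and leaving out each library. The mitochondrial share was used as a high or low set, cut at 2.5% in A375 and 7.5% in WM115. All 4 WM115 WT libraries were in the high set. The removal of 3 WM115 libraries together was chosen after seeing the data. For 1 related gene the result is not reported here.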

Additional observations from a re-analysis of the deposited data

Results flagged for a closer look

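PLAUR in WM115 R1 clone 1.1 had a library far from the rest of its group. Library 5 held 39.4 TPM, against 63.3 to 69.8 TPM in the other 4 libraries, a gap of 0.786 of the group's whole range. It had 14.4% mitochondrial transcripts, against 4.86% to 13.2% in the others. Of 40 groups of 4 or 5 libraries examined over the 8 genes this was the 1 with such a gap, and chance gives it in about 1 in 20 groups.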

How the results depend on the processing

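Of 3564 values of single genes under an alternative, 3434 were counted as kept, and 0 of the called ones reversed. For clones of a deletion, the total includes leaving out libraries of the other line, which cannot change a value. A value was kept where it stayed on its side of the call rule, so an uncalled value could change direction. The TFPI2 values that chose the gene were judged by direction and size of the move instead. Calls in A375 against WT were 1, ran from 1 to 4 with each library left out (over 1 for 9 of 18 libraries, namely WT libraries 2 and 4, libraries 1 and 3 of clone 1.1, library 2 of clone 1.2, libraries 2 and 4 of clone 4.1 and libraries 1 and 3 of clone 4.2), and were 0 within libraries of a low mitochondrial share. Calls in WM115 against WT were 14, ran from 9 to 18 with each library left out, were 11 with a term for a high or low mitochondrial share, and were 2 within libraries of a high mitochondrial share, a fit with fewer libraries. For WM115 WT against A375 WT the count of 2 ran to 4, with a pseudocount of 0.1 and without A375 WT library 2 or WM115 WT library 3. Between clones of a deletion the count of 6 ran from 5 to 7 with each library left out. Between R1 and R4 clones it was 0 with each clone left out, and 1 with libraries as units; the cause was not tested.

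With the replicate block, calls numbered 1 in A375 (SERPINA3 in clone 1.2 in place of TFPI2 in clone 1.1), 11 in WM115, 2 between WT cells and 3 between clones of a deletion. The block used only libraries whose replicate number occurred in both groups compared. Where the numbers pair the samples, in A375 clone 4.1, the block changed no call. Scaling by median of ratios moved the median difference of all genes in WM115 clone 1.1 from -0.12 to -0.02 and in clone 4.1 from -0.10 to 0, and kept all 14 WM115 calls. TPM without counts gives no detection limit for PLAU and other low genes.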
